A study of Mus musculus with 28 samples.

Results

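The genes described here encode the proteins of the cytosolic ribosome. They were chosen by name alone, as the genes whose symbol is Rpl or Rps with a number and at most 1 further letter, Rplp0, Rplp1, Rplp2 or Rpsa, and the rule uses no measured value. The rule found 81 of the 37974 rows of the single-cell table, of which 49 belong to the large and 32 to the small subunit. It takes in 4 paralogs that are not part of the usual set, Rpl3l, Rpl10l, Rpl39l and Rps27l. By gene identifier 62 of the 81 were present among the 36358 rows of the tissue table, and 61 were read there. The remaining row is named Rpl24 but carries the identifier that GENCODE assigns to Zbtb11, so its tissue values were not taken as those of a ribosomal protein. In the cells the row was kept under its name, and the counts, shares and medians given for the cells include it.

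RNA was sequenced from the ependymal and subependymal/subventricular zone (EZ-SEZ/SVZ) of C57BL/6 mice, the forebrain region in which neural stem/progenitor cells (NSC/NPCs) persist in adults. Bulk libraries came from young mice (3 weeks, 3 samples) and old mice (18 months, 3 samples). Single cells were sorted by size and complexity, picked by hand and amplified by the Smart-seq2 method, which copies full-length mRNA. Cells were kept after a qPCR screen for Prom1, Gfap, Dlx2 and Dcx. They fell into 3 Prom1+ cells aged 1 month and 3 aged 24 months, 2 Gfap+ cells aged 1 month and 5 aged 24 months, and 5 Dlx2+/Dcx+ cells aged 1 month and 4 aged 24 months. No genotype or treatment differed between the groups. The study assigned cells to subpopulations from these same transcriptomes, so differences between subpopulations are given as a description. No animal is named for any cell, and each subpopulation at each age was therefore treated as 1 sample without a test. The study counts the bulk samples per age group of mice without saying whether tissue was pooled, and p-values measure only the spread between these samples.

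A ribosome consists of a small subunit, which reads the mRNA, and a large subunit, which joins amino acids, and each carries ribosomal RNA and a fixed set of proteins. The proteins are needed in equal numbers, apart from the paired proteins of the stalk, and their mRNAs are among the most abundant of most cells. Most of these mRNAs begin with a C followed by a tract of pyrimidines (a 5′ terminal oligopyrimidine or TOP tract), through which mTOR signalling sets their translation when growth conditions change. Neural stem cells that leave quiescence are known to raise protein synthesis.

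The start sites are shown because a TOP tract, where a gene has one, lies there. RefSeq promoters (GRCm38.p6) were matched for 61 of the 81 genes. In the following 30-base windows, 15 bases lie before and 15 from the annotated start on, written 5′ to 3′ on the strand of the gene, and capitals mark the uninterrupted run of C and T that covers the start. The genes shown were taken from the 17 in which such a run of at least 8 bases covers the start, among those described in the results.
Rps6 (chr4:86857353-86857382, minus strand): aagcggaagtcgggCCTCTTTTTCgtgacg
Rps15a (chr7:118116133-118116162, minus strand): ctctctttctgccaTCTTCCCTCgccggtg
Rps27 (chr3:90213634-90213663, minus strand): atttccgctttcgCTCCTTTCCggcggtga
Rpl7a (chr2:26910792-26910821, plus strand): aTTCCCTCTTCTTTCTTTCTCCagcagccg
Rpl15 (chr14:18270972-18271001, minus strand): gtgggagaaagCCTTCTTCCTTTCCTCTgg
Rpl28 (chr7:4792950-4792979, plus strand): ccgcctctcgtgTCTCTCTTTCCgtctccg
Rpl35 (chr2:39005117-39005146, minus strand): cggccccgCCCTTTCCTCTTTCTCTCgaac
Rpl35a (chr16:33056467-33056496, plus strand): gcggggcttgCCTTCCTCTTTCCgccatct
Rplp2 (chr7:141447636-141447665, plus strand): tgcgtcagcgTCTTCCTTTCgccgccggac

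A run of at least 8 pyrimidines covered an annotated start in 17 of the 61 genes (27.9%), against 4.59% of the 27025 genes with a promoter in the same table. Within 40 bases on either side of the start, such a run was found on the gene's strand in 47 of the 61 (77%), against 32.6% of all genes. The hexamer CTCTTT, whose matches can lie inside such a run, stood in this window on the gene's strand in 16 of the 61 genes (26.2%, against 3.73% of all genes). On the other strand it was found in 1 of the 61 (1.64%, against 3.71%). Where a gene has several annotated starts, a match at any of them was counted. Rpl15 and Rpl28, which had negative log2 fold changes in the tissue, carried such runs, as did Rps6 and Rpl35a, which had positive ones.

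The tissue comparison asked how ribosomal protein mRNA differs between the neurogenic zone of young and old mice. Values are FPKM, fragments scaled to transcript length and to the number of mapped fragments. They were tested with limma on log2(FPKM + 1), and log2 fold changes are on that scale, as 18 months minus 3 weeks. Of the 61 genes 58 passed the filter of at least 1 FPKM in at least 3 samples. Rpl10l, Rpl39l and Rpl3l, whose expression is known mainly from testis or muscle, stayed below 1 FPKM in every tissue sample. The median log2 fold change of the 58 genes was 0.33, against 0.09 over all 12287 genes tested, and 48 of the 58 were positive, against 58.8% of all genes. The medians were 0.34 over 24 small-subunit genes, 22 of them positive, and 0.33 over 34 large-subunit genes, 26 of them positive, and the difference between subunits was not tested.

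Single genes passed the thresholds rarely. By limma with Benjamini-Hochberg adjustment, 1 of the 58 rose at an adjusted p under 0.05, against 2.51% of all genes, and 0 fell, against 2.42%. At an unadjusted p under 0.05 there were 21 positive genes (15.4% of all genes) and 5 negative ones (8.93% of all genes). None passed the study's limits of an unadjusted p under 0.05 with a log2 fold change above 1 or under -1, which 1.83% of all genes passed upward and 2.07% downward. The 3 samples of each age did not overlap for 28 genes with higher levels at 18 months, against 20.9% of all genes, and for 6 with lower levels, against 12.2%. In bulk tissue, fewer cells of a type and less RNA per cell cannot be told apart.

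The gene that rose was Rpl30, a large-subunit protein. It was at 125, 152 and 132 FPKM at 18 months and at 93.3, 84.8 and 79.7 FPKM at 3 weeks. The ages did not overlap, and the log2 fold change was 0.66 with an SE of 0.12 (limma, adjusted p = 0.0415). Without the 18-month sample 1 the adjusted p of Rpl30 was 0.0454, and without any other single sample it lay between 0.0904 and 0.152. The number of genes that rose became 14 without the 18-month sample 1, and 0 without any of the other 5 samples.

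Among small-subunit proteins with higher levels at 18 months, Rps29 and Rps21 had the largest positive log2 fold changes. Rps29, a zinc-binding protein of the small subunit, was at 285, 623 and 474 FPKM at 18 months and 194, 251 and 235 FPKM at 3 weeks. Rps21, which takes part in maturation of the small-subunit RNA, was at 277, 514 and 399 FPKM against 203, 202 and 196 FPKM. Both had old samples above every young sample, with the old samples spread over a wide range. The log2 fold changes were 0.96 with an SE of 0.30 for Rps29 (limma, adjusted p = 0.134) and 0.94 with an SE of 0.23 for Rps21 (limma, adjusted p = 0.0805). Rps6, a small-subunit protein that S6 kinase phosphorylates, was at 137, 156 and 153 FPKM against 108, 112 and 119 FPKM. Its log2 fold change was 0.39 with an SE of 0.10, and the ages did not overlap (limma, adjusted p = 0.0866). Rps19, the gene most often mutated in Diamond-Blackfan anaemia, was at 77.2, 97.7 and 99.4 FPKM against 62.5, 62.4 and 59.2 FPKM. Its log2 fold change was 0.56 with an SE of 0.13 (limma, adjusted p = 0.0702).

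In the large subunit, Rpl9 and Rpl35a stood in the same position. Rpl9, near the base of the stalk, was at 126, 260 and 213 FPKM at 18 months and 102, 107 and 103 FPKM at 3 weeks. Rpl35a, another Diamond-Blackfan anaemia gene, was at 142, 223 and 191 FPKM against 98.7, 109 and 101 FPKM. The young samples lay close together for both genes, and every old sample was above them. The log2 fold changes were 0.87 with an SE of 0.27 for Rpl9 (limma, adjusted p = 0.131) and 0.82 with an SE of 0.18 for Rpl35a (limma, adjusted p = 0.0661). Rpl21 had the largest value of all, 0.97 with an SE of 0.94 (limma, adjusted p = 0.571), and it rested on 1 library. It was at 40.6, 61.8 and 47.9 FPKM at 18 months and at 58.1, 4.51 and 51.3 FPKM at 3 weeks, and without the 3-week sample 2 its log2 fold change was -0.14.

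Of the 6 genes with ages apart and lower levels at 18 months, 5 belong to the large subunit, as do 34 of the 58 tested. Rpl15, which lies deep in the large subunit, was at 26.2, 28.5 and 25.2 FPKM at 18 months and 55.5, 40.6 and 32.0 FPKM at 3 weeks. Rpl28 was at 134, 123 and 91.1 FPKM against 142, 145 and 177 FPKM. Rpl41, a very short peptide at the contact between the subunits, was at 1147, 1040 and 820 FPKM against 1204, 1271 and 1446 FPKM. In each of these genes all old samples were below all young ones. The log2 fold changes were -0.63 for Rpl15 (SE 0.21, limma, adjusted p = 0.147), -0.42 for Rpl28 (SE 0.18, limma, adjusted p = 0.226) and -0.39 for Rpl41 (SE 0.16, limma, adjusted p = 0.197). Without the 18-month sample 3 that of Rpl28 was -0.26, and that of Rpl41 was also smaller in size but negative. Rps2, at the site where mRNA enters the small subunit, was at 132, 152 and 127 FPKM against 158, 189 and 192 FPKM, and its log2 fold change was -0.39 with an SE of 0.13 (limma, adjusted p = 0.142).

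The stalk, which recruits elongation factors, held genes of both signs. Rplp0, its base, was at 222, 269 and 227 FPKM at 18 months and 288, 310 and 311 FPKM at 3 weeks, a log2 fold change of -0.34 with an SE of 0.11 (limma, adjusted p = 0.140). Rplp2, which pairs with Rplp1 on that base, was at 113, 193 and 172 FPKM against 131, 112 and 78.9 FPKM, a log2 fold change of 0.56 with an SE of 0.27 and overlapping ages (limma, adjusted p = 0.277). Without the 3-week sample 3, at 78.9 FPKM, the value of Rplp2 was smaller but positive. Rps27a, made as a fusion with ubiquitin, was at 58.5, 86.2 and 80.7 FPKM against 36.9, 57.3 and 35.6 FPKM. Its log2 fold change was 0.80 with an SE of 0.24 and the ages did not overlap (limma, adjusted p = 0.128). Rpl5 and Rpl11, which bind the 5S RNA and, outside the ribosome, the p53 regulator Mdm2, had smaller values. Rpl5 was at 68.8, 73.7 and 65.3 FPKM against 62.7, 59.2 and 55.5 FPKM, and Rpl11 at 151, 154 and 147 FPKM against 114, 130 and 139 FPKM. Neither gene overlapped between ages, and their log2 fold changes were 0.23 for Rpl5 (SE 0.10, limma, adjusted p = 0.241) and 0.24 for Rpl11 (SE 0.10, limma, adjusted p = 0.228).

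**Figure D1:**
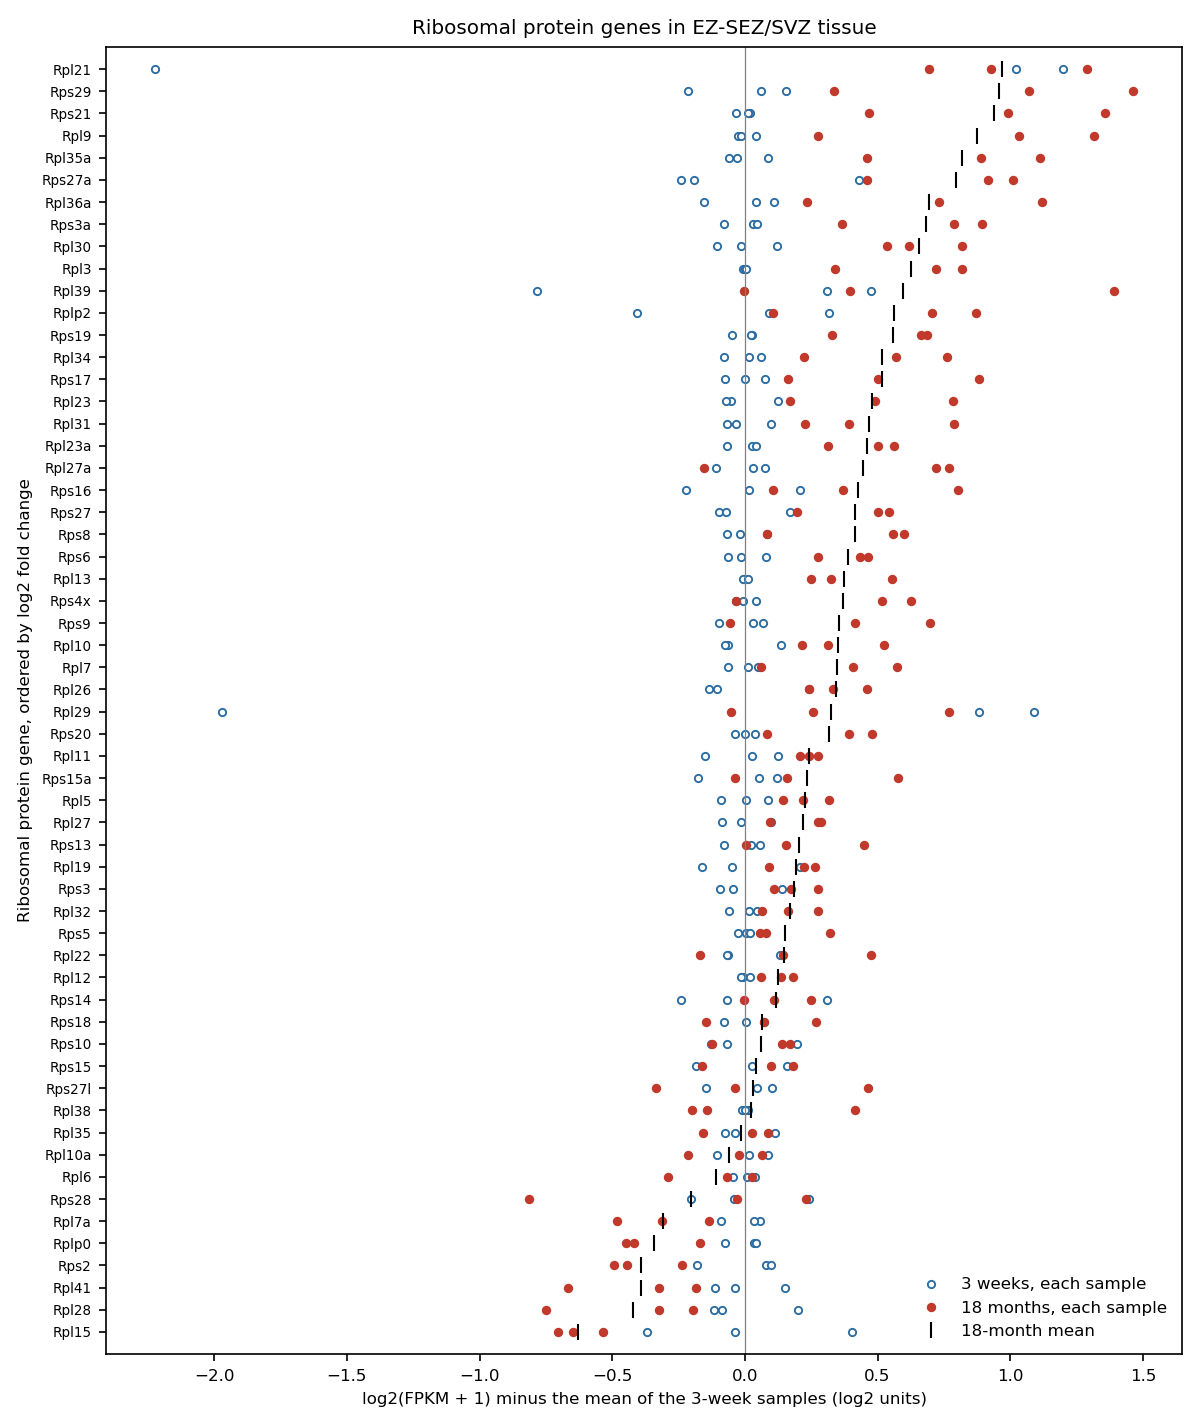
Tissue levels of the 58 tested ribosomal protein genes. The x axis gives log2(FPKM + 1) minus the mean of the 3-week samples, each point is 1 sample (hollow, 3 weeks; filled, 18 months), the tick is the 18-month mean, and genes are ordered by log2 fold change. Ticks lie above 0 for 48 genes, and the single hollow point far to the left of Rpl21 is the 3-week sample at 4.51 FPKM.

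The 18-month sample 2 stood highest most often. It was the highest of the 6 samples in 35 of the 58 genes. Leaving it out gave a median log2 fold change of 0.24, and leaving out any other single sample gave 0.30 to 0.36. As a share of all FPKM, the 61 genes took 3.57%, 4.20% and 3.67% at 18 months and 3.14%, 3.29% and 3.20% at 3 weeks. Every old sample lay above every young one, with means of 3.82% ± 0.338 and 3.21% ± 0.0733 (SD, n = 3 each). The difference of 0.605 percentage points had a two-sided exact permutation p of 0.1, the smallest that 3 samples against 3 allow. Ribosomal protein transcripts are short and abundant, so other such genes were read beside them. The median log2 fold change was 0.05 over 728 other coding genes with transcripts of at most 1000 bases, and 0.05 over 1266 other genes at or above 43.4 FPKM.

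Markers of several cell types differed between the same libraries, and their part in the result was not tested. Of 9 oligodendroglia markers 7 were tested and 6 fell (limma, adjusted p), with summed levels of 3570 to 4240 FPKM at 18 months and 19300 to 21300 FPKM at 3 weeks. Of 7 neuroblast markers 5 were tested and 4 fell, with sums of 187 to 206 FPKM against 307 to 344 FPKM. Of 8 proliferation markers 7 were tested and 6 fell, with sums of 56.2 to 66.0 FPKM against 101 to 114 FPKM. Of 7 markers of Prom1+ stem cells, all tested, 0 passed an adjusted p under 0.05, with sums of 93.5 to 280 FPKM against 267 to 327 FPKM. Their median log2 fold change was -0.62 with 1 of 7 positive. Prom1 itself passed the study's limits downward, with a log2 fold change of -1.01 and an SE of 0.26 (limma, adjusted p = 0.0884). Of 4 red blood cell markers 2 fell. None of 7 tested microglia, 4 tested astrocyte and 7 tested neuron markers passed an adjusted p under 0.05. The neuron markers had a median log2 fold change of 0.47 with 5 of 7 positive, and their sums did not overlap, at 2210 to 2710 FPKM at 18 months and 1190 to 1840 FPKM at 3 weeks. Ppp1r1b, a marker of striatal neurons, passed the study's limits upward, with a log2 fold change of 1.27 and an SE of 0.34 (limma, adjusted p = 0.1). The astrocyte markers had a median of 0.47 with 4 of 4 positive and overlapping sums of 635 to 888 FPKM against 536 to 818 FPKM.

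Ribosomal protein genes have many processed pseudogenes, and reads can be split between near-identical copies. Of the 58 tested genes 44 had at least 1 other gene in the tissue table whose transcript matched at 95% identity or more over at least 50% of its length. In these the copies held a median of 27.8% of the summed FPKM. When each gene was summed with its copies, the median log2 fold change was 0.34, 47 genes were positive, and the ages did not overlap for 27 higher and 5 lower genes. The 14 genes without a copy had a median of 0.34. The sign turned for 3 genes, Rpl6, Rpl29 and Rpl31, which were chosen for mention after their values were seen. Rpl31 went from 0.47 to -0.19 with its 10 copies, Rpl6 from -0.11 to 0.02 and Rpl29 from 0.32 to -0.11 with its 17 copies. The value of Rpl29 without copies also rested on 1 library: it was at 188, 131 and 106 FPKM at 18 months and 203, 234 and 27.2 FPKM at 3 weeks, and without the 3-week sample 3 its log2 fold change was -0.66. With their copies Rpl28 and Rps27a had overlapping ages, at -0.22 and 0.89, as did Rpl10, Rpl31, Rps27 and Rps3a, whereas Rpl19, Rpl21, Rps18 and Rps4x had ages apart and higher at 18 months. Rps6 went from 0.39 to 0.67 with its 7 copies, which held 59.8% of the FPKM, Rpl11 from 0.24 to 0.38 and Rplp0 from -0.34 to -0.56. Rpl21, for which 37 copies held 89.3% of the FPKM, had 0.45 when they were added. The gene that GENCODE calls Rpl24 was at 144, 140 and 136 FPKM at 18 months and 115, 127 and 152 FPKM at 3 weeks, a log2 fold change of 0.10 with an SE of 0.13 (limma, adjusted p = 0.663).

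Genes that act with the ribosomal proteins were read from lists. Of 50 ribosome biogenesis factors 34 were tested, with a median log2 fold change of 0.10, 21 of them positive and 0 called in either direction. The ribosome genes outside the name rule had a median of 0.14 over the 4 tested of 8. One of them, Rpl22l1, the paralog of Rpl22, was at 19.0, 40.6 and 32.8 FPKM at 18 months and 15.2, 16.5 and 14.1 FPKM at 3 weeks, a log2 fold change of 0.91 with an SE of 0.28 (limma, adjusted p = 0.132). Rack1, a scaffold on the small subunit, was at 130, 179 and 175 FPKM against 162, 144 and 174 FPKM, and its log2 fold change was 0.00 (SE 0.16). Of 14 other genes with TOP mRNAs 8 were tested, with a median of 0.21. Pabpc1, the poly(A)-binding protein, fell among them, from 264, 247 and 225 FPKM at 3 weeks to 165, 112 and 118 FPKM at 18 months (log2 fold change -0.91, SE 0.17, limma, adjusted p = 0.0475).

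Of 20 genes that control ribosomal protein synthesis through growth signals 14 were tested, with a median log2 fold change of -0.02. Mycn, a transcription factor of progenitor growth, fell from 8.17, 7.61 and 8.36 FPKM to 3.06, 3.16 and 2.99 FPKM (log2 fold change -1.15, SE 0.11, limma, adjusted p = 0.00686). Tsc1, a brake on mTOR, rose from 4.72, 5.92 and 4.64 FPKM to 8.91, 9.53 and 12.4 FPKM (log2 fold change 0.88, SE 0.17, limma, adjusted p = 0.0479). Of 7 genes of the p53 axis 6 were tested, with a median of -0.07 and 0 called.

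Before levels were compared in single cells, the marker genes of each subpopulation were read. The label genes are no independent check, since they chose the cells. Gfap was at 48.7 to 195 FPKM in all 7 Gfap+ cells and at 0 in all 6 Prom1+ cells. Dlx2 was at 270 to 1916 FPKM in the 9 Dlx2+/Dcx+ cells and at or below 2.79 FPKM in all other cells. Prom1 was at 1.49 to 56.6 FPKM in the Prom1+ cells, at or below 0.452 FPKM in Gfap+ cells and at 0 to 6.29 FPKM in Dlx2+/Dcx+ cells, where 2 cells, at 1.93 and 6.29 FPKM, were above the lowest Prom1+ cell. The Gfap+ cells also carried markers of another type. Their 9 oligodendroglia markers summed to 30400 to 65200 FPKM in each cell, against 8.16 to 187 FPKM in Prom1+ cells and 5.9 to 347 FPKM in Dlx2+/Dcx+ cells. The 6 astrocyte markers, of which Gfap is 1, summed to 187 to 2710 FPKM in Gfap+ cells, against 46.8 to 295 FPKM in Prom1+ cells and 0 to 166 FPKM in Dlx2+/Dcx+ cells, and in 1 Gfap+ cell aged 1 month the other 5 were at 0. In Gfap+ and Prom1+ cells the medians were 604 and 0.058 FPKM for S100b and 373 and 62.8 FPKM for Aldoc, but 0 and 56.9 FPKM for Gja1. Aldh1l1 was at 0 in all 7 Gfap+ cells, and Aqp4 was at or below 0.0934 FPKM in each. Summed FPKM was 1013520 to 1801300 per Gfap+ cell and 868792 to 1200830 in the others, so a value in FPKM is not the same share of the total in every cell.

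Of the 81 genes 78 were expressed, at above 1 FPKM in at least 3 cells, among 11332 expressed genes. The other 3 were again Rpl10l, Rpl39l and Rpl3l, listed at 0 in all 22 cells. Above 1 FPKM in every cell were 59 genes. Zeros were listed 20 times among the 78 genes, 18 of them in Gfap+ cells, 2 in Dlx2+/Dcx+ cells and 0 in Prom1+ cells.

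Rpl13a, Rpl23 and Rps26 had the highest medians over the 22 cells. Rpl13a, a protein often used as a reference gene, had a median of 1628 FPKM and ranged from 4.78 to 4131 FPKM. In Gfap+ cells aged 24 months it was at 1141, 4.78, 1098, 2413 and 6.14 FPKM. The cell table lists for Rpl13a a span of more than 2 times the gene, as for 15 of the 81 genes, Rpl12, Rpl13, Rpl15, Rpl35 and Rps27a among them, and which transcripts were counted there is not given. Rpl23, a large-subunit protein that can bind Mdm2, had a median of 926 FPKM, and Rps26, near the exit of the mRNA channel, one of 848 FPKM. Rpl12, at the base of the stalk, had the lowest median of the expressed genes, 9.27 FPKM. In the Prom1+ cells it lay at 166, 125 and 1.50 FPKM at 1 month and 45.2, 136 and 142 FPKM at 24 months, and it was listed at 0 in 5 cells of the other subpopulations.

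**Figure D2:**
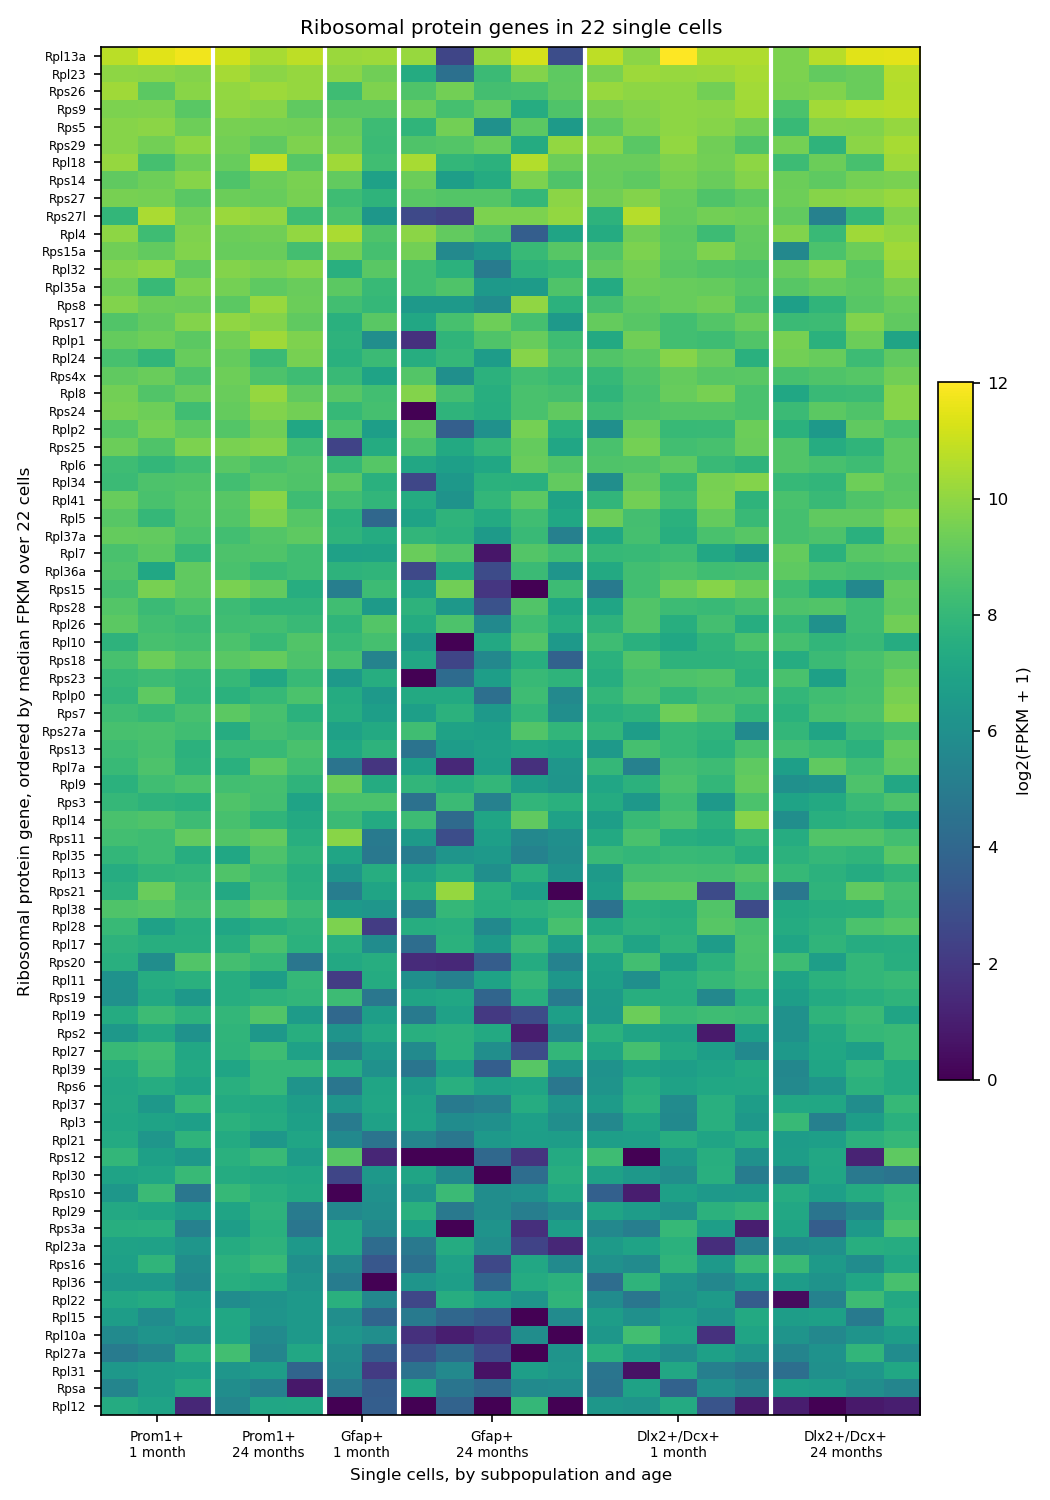
Levels of the 78 expressed ribosomal protein genes, less 1 that is not shown, in 22 single cells. Rows are genes ordered by their median over the cells, columns are cells grouped by subpopulation and age, and colour gives log2(FPKM + 1). Dark fields, including 18 of the 20 values listed at 0, are most frequent in the Gfap+ columns.

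The share of summed FPKM taken by the 81 genes was lowest in Gfap+ cells. The 81 genes took 2.62 to 3.93% of summed FPKM in Prom1+ cells, 2.19 to 3.59% in Dlx2+/Dcx+ cells and 0.884 to 1.42% in Gfap+ cells. Every Gfap+ cell lay below every other cell, while the ranges of Prom1+ and Dlx2+/Dcx+ cells overlapped. The medians were 3.26% for Prom1+, 2.62% for Dlx2+/Dcx+ and 1.12% for Gfap+ cells. Mitochondrial genes took 15.4 to 35.9% of FPKM in Gfap+ cells and 13.5 to 35.3% in Prom1+ cells. Genes above 1 FPKM numbered 4398 to 6061 in Gfap+ cells and 5924 to 6626 in Prom1+ cells. The 8 proliferation markers summed to 9.31 to 160 FPKM in Gfap+ cells and 900 to 3860 FPKM in Prom1+ cells, with all 8 lower in Gfap+ cells and a median difference of -4.76. The part of these measures and of the oligodendroglia markers in the difference was not tested. With mitochondrial genes left out of the total, the medians were 4.55% for Prom1+, 3.33% for Dlx2+/Dcx+ and 1.47% for Gfap+ cells.

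**Figure D3:**
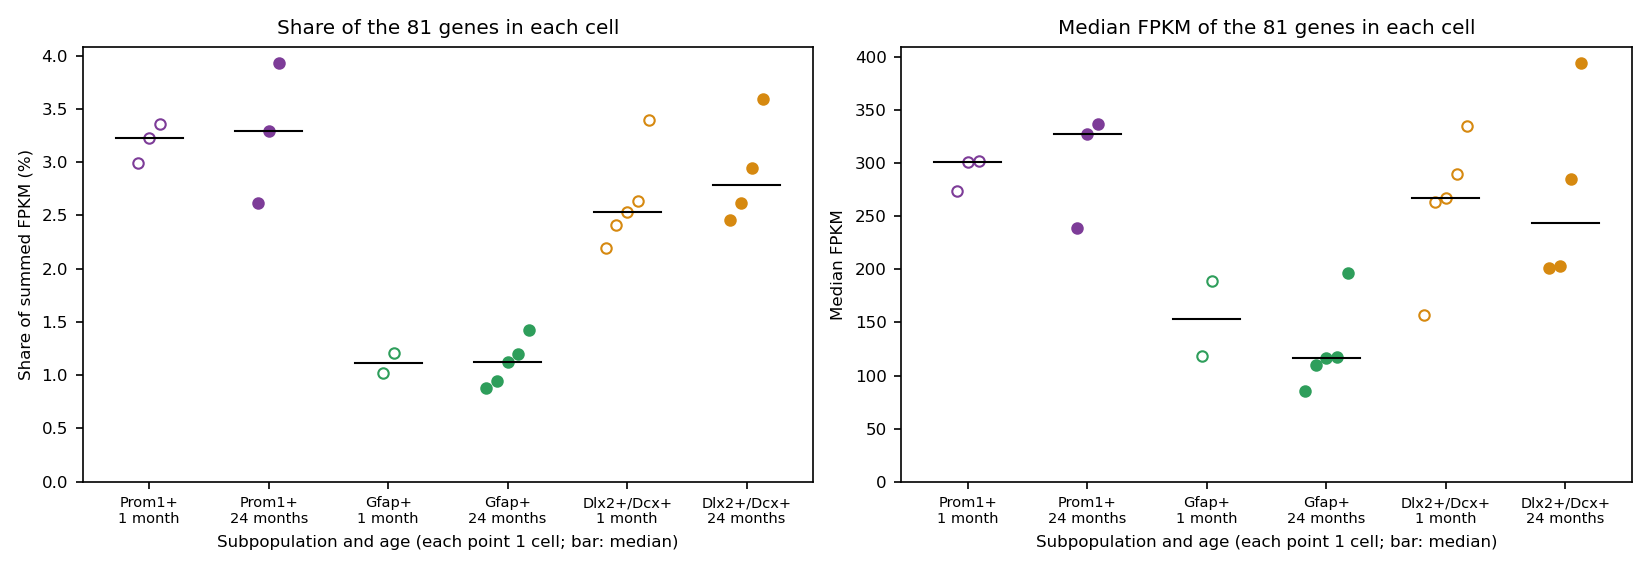
Share of summed FPKM taken by the 81 genes (left, %) and their median FPKM (right) in each cell, by subpopulation and age. Each point is 1 cell (hollow, 1 month; filled, 24 months) and bars are medians; the shares of the 7 Gfap+ cells, 0.884 to 1.42%, lie below those of all other cells.

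Gene by gene, mean log2(FPKM + 1) was lower in Gfap+ than in Prom1+ cells for all 78 genes, while 58.1% of all expressed genes and 61.8% of the 2612 expressed at least as highly as the lowest of the 78 were lower. The median difference was -1.33, against -0.32 over all expressed genes and -0.70 over those as highly expressed, and it was -1.44 for large-subunit and -1.26 for small-subunit genes. The floor of the 2612 genes, here and below, is the median of Rpl12, 9.27 FPKM. Most of the 78 genes stood far above it, so the 2612 genes are not matched to them for level. Scaled to TPM, which gives every cell the same total, the median difference was -1.96. The difference ranged from -4.35 to -0.21. Only 5 genes had every Gfap+ cell below every Prom1+ cell, Rpl7a, Rpl32, Rpl35, Rpl37a and Rpl38, against 1.91% of all expressed genes and 4.56% of those as highly expressed. No gene had every Gfap+ cell above every Prom1+ cell, against 2.53% and 3.71%. All 5 are large-subunit genes, as are 46 of the 78, and all 32 small-subunit genes had negative differences too.

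Rpl7a, a protein that binds the large-subunit RNA early in assembly, was at 274, 405 and 222 FPKM in Prom1+ cells aged 1 month and at 196, 531 and 325 FPKM in those aged 24 months. In Gfap+ cells it was at 23.8 and 2.57 FPKM at 1 month and at 111, 1.60, 110, 2.22 and 79.5 FPKM at 24 months. The difference was -4.35, and 3 Gfap+ cells were under 3 FPKM. Rpl7a has 18 near-identical copies in the cell table, where 59 of the 81 genes have at least 1, and cell values were not summed with copies. Rpl35, at the exit of the peptide tunnel, was at 143 to 406 FPKM in Prom1+ cells, with a median of 240 FPKM, and at 26.9 to 135 FPKM in Gfap+ cells, with a median of 58.2 FPKM. Rpl32 had medians of 875 and 219 FPKM in the same subpopulations, with ranges of 544 to 1019 FPKM and 31.1 to 491 FPKM. The differences were -2.04 for Rpl35 and -1.86 for Rpl32. Rps3, which lies at the mRNA entry and is also known from DNA repair, had nearly level medians, 236 FPKM in Prom1+ and 242 FPKM in Gfap+ cells. Its difference was -0.25 with both ages weighted equally. The mean log2(FPKM + 1) was 8.62 at 1 month and 6.69 at 24 months in Gfap+ cells, and 7.80 and 8.01 in Prom1+ cells.

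Dlx2+/Dcx+ cells, which carry neuroblast markers, were compared with Prom1+ cells in the same way. The median difference was -0.24 with 59 of 78 genes negative, against -0.16 and 56.5% over all expressed genes. Over those as highly expressed the median was -0.26. No gene had the subpopulations apart (of all expressed genes 0.176% were apart lower and 0.221% higher, and of those as highly expressed 0.191% and 0.498%). Rpl38, which is needed for selective translation of Hox mRNAs, was at 5.60 to 425 FPKM there and at 293 to 503 FPKM in Prom1+ cells, a difference of -1.66. Rplp1 had a difference of -1.09, Rplp2 of -0.75 and Rplp0 of 0.25, so the stalk genes were of both signs. The Rplp0 difference was smaller but positive without cell 4 aged 24 months, which was at 746 FPKM. For Rps9, a protein of small-subunit assembly, the difference was 0.47, with medians of 993 FPKM in Dlx2+/Dcx+ and 809 FPKM in Prom1+ cells.

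Cells of 1 subpopulation were alike to unequal degrees. The highest level of a gene exceeded the lowest by a median factor of 2.65 over the 78 genes in Prom1+ cells, 5.38 in Dlx2+/Dcx+ cells and 27.0 in Gfap+ cells, computed after adding 1 FPKM. This factor depends on the number of cells, 6, 9 and 7 in that order, and on low values, and no value over other genes is given beside it. Below 10 FPKM were 0 to 1 of the 78 genes in each Prom1+ cell, 0 to 5 in each Dlx2+/Dcx+ cell and 5 to 12 in each Gfap+ cell. The median correlation of log2(FPKM + 1) between pairs of cells, across 78 genes, was 0.73 in Prom1+ cells, 0.58 in Dlx2+/Dcx+ cells and 0.33 in Gfap+ cells. Cells of a pair share gene length and base composition, and genes are not independent replicates. Rpl10a, on the mobile L1 stalk, was such a gene: it was at 79.3 and 59.8 FPKM in the Gfap+ cells aged 1 month and at 2.13, 1.00, 1.95, 59.2 and 0 FPKM in those aged 24 months.

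Whether the same genes differ with age inside a subpopulation was asked next, as values without a test. In Prom1+ cells the median age difference of the 78 genes was 0.07, against 0.00 over all expressed genes and -0.20 over those as highly expressed, and 47 were positive, against 47.9% of all genes. The direction turned without cell 2 aged 24 months, to -0.04 with 35 genes positive, and with mitochondrial genes left out of the scaling, to -0.06 with 34 positive. The ages did not overlap for 3 genes higher at 24 months (3.9% of all genes) and 1 lower (4.1%). Rps19 was at 67.2, 153 and 82.6 FPKM at 1 month and 181, 216 and 239 FPKM at 24 months, a difference of 1.14. Rplp1, the acidic stalk protein, was at 576, 648 and 509 FPKM against 707, 1248 and 819 FPKM, and Rpl6 at 309, 251 and 320 FPKM against 487, 379 and 426 FPKM. Their differences were 0.64 and 0.55. Rpl22, a large-subunit protein that can be replaced by Rpl22l1, was lower, with 146, 166 and 97.6 FPKM at 1 month, 56.1, 71.1 and 89.5 FPKM at 24 months and a difference of -0.90. Rpsa, also known as the laminin receptor precursor, was at 42.9, 102 and 167 FPKM against 58.8, 36.2 and 0.734 FPKM, a difference of -2.54 with overlapping ages. Most of its size rested on the 1 cell at 0.734 FPKM, without which the difference was smaller but negative.

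In Gfap+ cells the median age difference was -0.39, against 0.16 over all expressed genes and 0.23 over those as highly expressed, with 28 genes positive, against 55.8% of all genes. Mitochondrial genes took 31.9 and 35.9% of FPKM in the cells aged 1 month and 15.4 to 22.3% in those aged 24 months, without overlap, and scaled without them the median age difference was -0.52. Over the 4 expressed of 6 astrocyte markers the median age difference was 1.68 in these cells, and over the oligodendroglia markers it was -0.53. Some markers went the other way, Gfap in the first list and Sox10, Olig2 and Mbp in the second. Gfap was at 188 and 116 FPKM at 1 month and at 96.1, 48.7, 75.3, 195 and 160 FPKM at 24 months. S100b and Aldoc, which rose, were at 0 in cell 1 aged 1 month. The part of either list in the result was not tested. No gene was apart and higher at 24 months (2.8% of all genes), and 2 were apart and lower (3.1%). These were Rpl10a, with a difference of -4.10, and Rps3, which was at 390 and 394 FPKM at 1 month and 21.3, 292, 37.3, 242 and 193 FPKM at 24 months, a difference of -1.93. The 1-month group holds 2 cells, and when medians over cells replaced means, the median age difference was -0.07.

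In Dlx2+/Dcx+ cells the median age difference was 0.12, against -0.14 over all expressed genes and -0.35 over those as highly expressed, and 49 genes were positive, against 40.8% of all genes. The direction turned without cell 4 aged 24 months, to a median of -0.04 with 34 genes positive. Ages were apart for 1 gene higher at 24 months (0.644% of all genes) and for 0 lower (1.08%). In the same cells the median age difference of 8 proliferation markers was -4.16, but Pcna and Mcm2 went the other way. Pcna was at 0.915 to 1033 FPKM at 1 month and at 748 to 1322 FPKM at 24 months. Mcm2 was at or below 2.04 FPKM at 1 month and at 0.591 to 111 FPKM at 24 months. The part of these markers in the result was not tested. Rpl12 was at 81.3, 73.0, 163, 7.64 and 0.846 FPKM at 1 month and at 0.941, 0, 0.785 and 1.02 FPKM at 24 months, a difference of -4.08. Its ages overlapped through 1 cell aged 1 month.

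**Figure D4:**
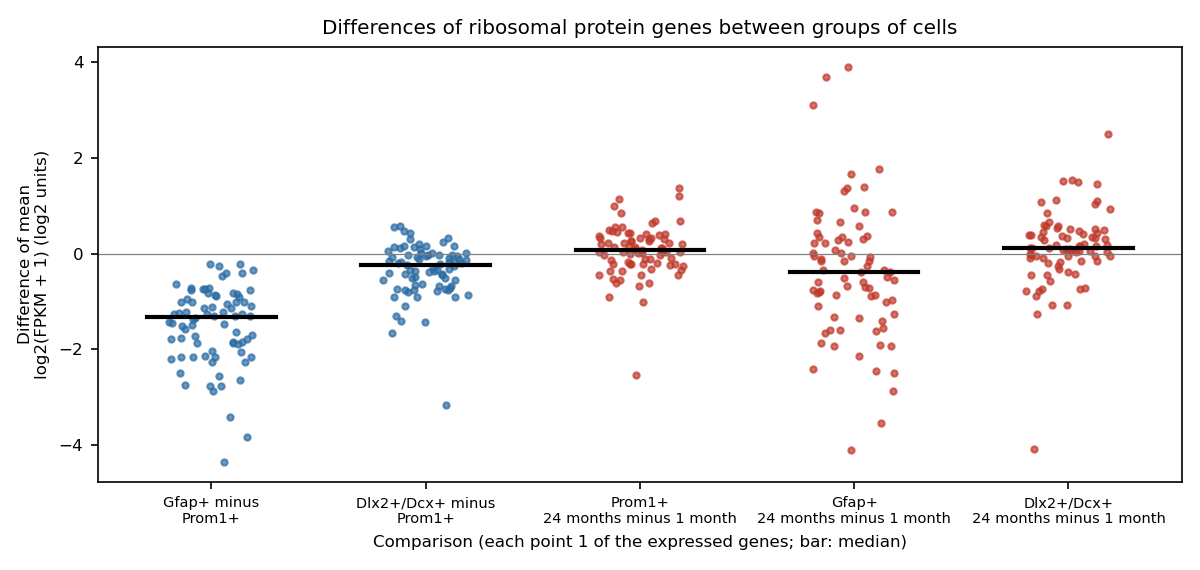
Differences of mean log2(FPKM + 1) between groups of cells for the 78 expressed ribosomal protein genes, with both ages weighted equally between subpopulations. Each point is 1 gene, spread sideways for legibility, and bars are medians; blue points compare subpopulations and red points ages. All Gfap+ minus Prom1+ points lie below 0, with a median of -1.33, and the medians of the age differences are 0.07, -0.39 and 0.12.

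Levels per length in tissue and in single cells ranked the genes differently. Across the 58 genes the correlation of log2(FPKM + 1) between tissue and each subpopulation mean was 0.28 to 0.29, whereas pairs of tissue samples had a median of 0.93. Rpl41 and Rps15, a protein at the decoding site, were the highest in tissue, with means of 1154 and 1019 FPKM, and ranked 17 and 21 of the 58 in cells with medians of 354 and 320 FPKM. Rps27l, a paralog of Rps27 that p53 induces, was the lowest tested gene in tissue at 9.08, 11.4 and 16.6 FPKM at 18 months and 12.7, 12.1 and 10.5 FPKM at 3 weeks. Its log2 fold change was 0.03 with an SE of 0.23 (limma, adjusted p = 0.949). In cells its median was 616 FPKM, from 4.22 to 1621 FPKM, next to 620 FPKM for Rps27. Rps15a, at 12.8 FPKM in tissue and 556 FPKM in cells, stood in the same corner, and 89.9% of the tissue FPKM of Rps15a and its 6 copies was listed under the copies. The 2 tables were made from different library types and were not scaled to each other.

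**Figure D5:**
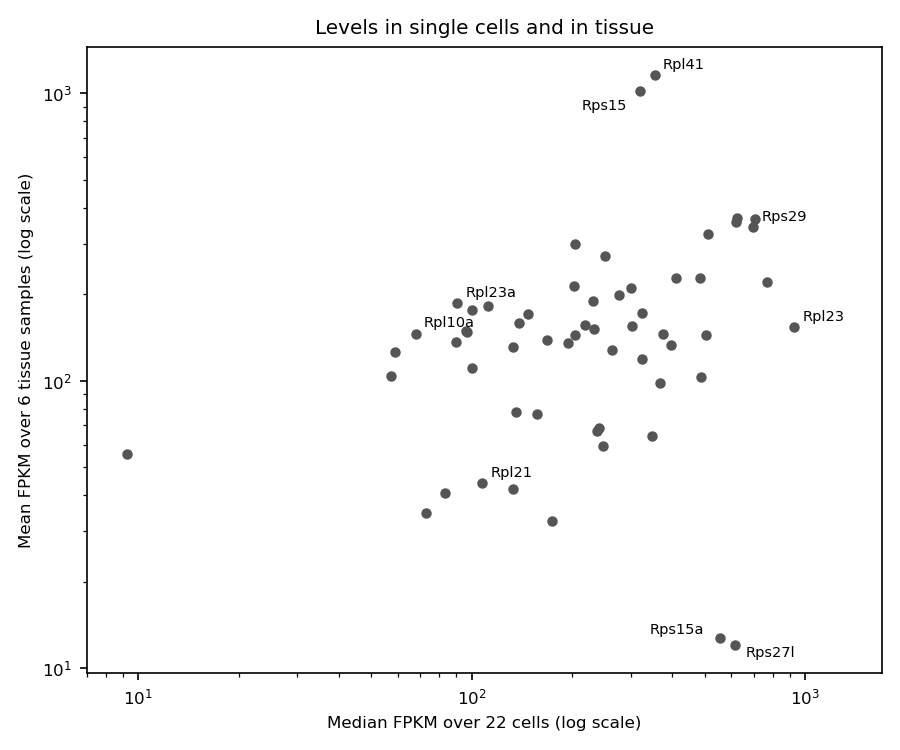
Levels of the 58 tested ribosomal protein genes in single cells (x axis, median FPKM over 22 cells) and in tissue (y axis, mean FPKM over 6 samples), both on log scales, each point 1 gene. Rpl41 and Rps15 lie at the top, and Rps27l and Rps15a lie near 12 to 13 FPKM in tissue at over 500 FPKM in cells.

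The cell rows of the near relatives were read as well. Rpl22l1 had a median of 253 FPKM in Prom1+ cells, 50.5 FPKM in Gfap+ cells and 88.3 FPKM in Dlx2+/Dcx+ cells. Fau, whose product is processed to the small-subunit protein Rps30, had medians of 384, 224 and 442 FPKM in the same order. Gnb2l1, an older symbol of Rack1, had medians of 209, 3.21 and 247 FPKM. Over the 6 expressed genes outside the name rule the median of the Gfap+ minus Prom1+ differences was -2.71, with all 6 negative, and over 47 expressed biogenesis factors it was -1.29, with 39 negative.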

How the data were processed

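Per the study's methods, reads were aligned to GRCm38 with HISAT2 and expression was estimated with StringTie, and the submitters' notes also name featureCounts. Versions and annotation are not given in the sources used here. The authors deposited FPKM values, 1 column per sample or cell, with no scaling between samples stated. The name rule uses no measured value, but this gene family and the gene lists were chosen with earlier results of these data known.

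Tissue genes with at least 1 FPKM in at least 3 samples were tested on log2(FPKM + 1) with limma 3.58.1 (lmFit, eBayes with trend) in R 4.3.3, with age as the only term, after a check on simulated data. The positions and copies came from GENCODE vM21 on GRCm38, matched by identifier, which found 99.2% of tissue and 86.7% of cell identifiers. Depth, read from the FPKM steps of single-fragment genes, was 18400000 to 22100000 fragments per tissue sample, and was not recovered from the values of the cells, whose read totals the study lists in a supplement not used here. An exact 0 may be a failed estimate. The tissue table held 0 mitochondrial genes. Cell differences are of mean log2(FPKM + 1), without a test, and those between subpopulations weight the means of both ages equally. Tables were made with Python 3.11.15, pandas 2.3.3 and scipy 1.17.1, and figures with matplotlib 3.10.9.

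Named genes were the 5 largest log2 fold changes in each direction, those past a limit, those with ages or subpopulations apart, the 3 highest and lowest, the stalk and paralog genes, and others whose role is described, which were added after their values were seen. Alternatives were a pseudocount of 0.1, no filter, scaling to TPM, quantile normalization, a replicate block, omission of each sample or cell, and, for cells, totals without mitochondrial genes, medians, and zeros left out. Sums with copies, genes without copies, and omission of the 15 genes with wide listed spans were chosen after seeing the data. Some genes are not reported here.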

Additional observations from a re-analysis of the deposited data

Results flagged for a closer look

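Single cells that stood apart from the rest of their group, by Dixon's criterion, were found in 8 of 114 checks over groups of 4 or 5 cells, and chance flags about 1 in 20. In the Gfap+ cells aged 24 months, cell 4 had a median FPKM of 196.7 over the ribosomal protein genes, Rpl10a at 59.2 FPKM and Rpl39 at 476 FPKM, all above the other 4 cells, and cell 2 had Rps21 at 1099 FPKM. In the Dlx2+/Dcx+ cells aged 1 month, cell 1 had Rpl13 at 93.2 FPKM, below the others, and cell 3 had Rpl13a at 4131 FPKM, above them. In the Dlx2+/Dcx+ cells aged 24 months, cell 2 had Rpl30 at 136 FPKM and cell 4 had Rpl35 at 489 FPKM, both above the others.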

How the results depend on the processing

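In the tissue the median log2 fold change of the 58 genes stayed positive under every alternative, from 0.24 to 0.37. The number of genes that rose at an adjusted p under 0.05, 1 as reported, was 0 without a filter on low values (60 genes tested) and 2 with TPM scaling. With each sample left out it ranged from 0 to 14, and the number past the study's limits upward from 0 to 4, with 4 without the 18-month sample 1 and 2 without the 3-week sample 2. The difference in share ranged from 0.412 to 0.726 percentage points. Samples with the same number at both ages did not deviate together (correlations -0.096, -0.011 and -0.098), so the number was not taken as a pairing. With a replicate block the count was 0, the median was 0.33 and the adjusted p of Rpl30 was 0.210.

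Near 0 the sign of single tissue values was not stable. Rpl35 was 0.0197 with TPM scaling, and Rps15 and Rps27l were -0.0019 and -0.0014 with quantile normalization. With samples left out, the log2 fold change ranged from -0.142 to 1.57 for Rpl21, -0.6605 to 0.8687 for Rpl29, -0.119 to 0.0207 for Rpl10a, -0.0138 to 0.309 for Rpl22, -0.0657 to 0.0564 for Rpl35, -0.0034 to 0.273 for Rps14, -0.0524 to 0.140 for Rps15 and -0.186 to 0.215 for Rps27l. In cells the median Gfap+ minus Prom1+ difference was -1.96 with TPM scaling and -1.94 scaled without mitochondrial genes, and with cells left out it lay between -1.53 and -1.17. The age difference in Prom1+ cells was -0.0618 scaled without mitochondrial genes and -0.0420 to 0.191 with cells left out, in Gfap+ cells -0.74 to -0.20 and in Dlx2+/Dcx+ cells -0.0446 to 0.255. With cells left out the Dlx2+/Dcx+ minus Prom1+ difference lay between -0.37 and -0.17. Without mitochondrial genes the median shares were 4.55%, 1.47% and 3.33% in Prom1+, Gfap+ and Dlx2+/Dcx+ cells. The cause was not tested. With 3 tissue samples per age and 2 to 5 cells per group, small differences cannot be resolved.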
